A study of Homo sapiens with 16 samples.

Results

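The genes described here are 51 genes of the unfolded protein and amino acid stress responses. They were chosen by symbol, as 24 genes of the XBP1 and ATF6 chaperone arm, 15 genes of the ATF4 arm and 12 cytosolic tRNA synthetases, and all 51 were found among the 22445 gene IDs of the expression table. Molm14 cells, a human acute myeloid leukaemia line that carries a KMT2A rearrangement, were cultured for 7 days in RPMI that held fetal bovine serum, with medium and compound renewed on day 4. The iDOT1L group received 0.16 uM EPZ5676, an inhibitor of the histone H3 lysine 79 methyltransferase DOT1L. The iEZH2 group received 0.3 uM GSK126, an inhibitor of EZH2, the catalytic subunit of the Polycomb repressive complex that methylates histone H3 lysine 27. The Combo group received both compounds at these doses, and the DMSO group received the vehicle. The extraction text of the labels instead places RNA collection 3 days after a sort, so the time from treatment to collection is uncertain. Each group held 4 libraries from this 1 cell line, and the labels do not say whether the 4 came from separate cultures, so the p-values speak only of the spread among these libraries, which may be technical.

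The unfolded protein response senses misfolded protein in the endoplasmic reticulum (ER) through IRE1 (gene ERN1), ATF6 and PERK (gene EIF2AK3). IRE1 splices the XBP1 messenger RNA so that it encodes an active transcription factor, and XBP1 and ATF6 act on genes for ER chaperones and for ER-associated degradation, which exports misfolded proteins for destruction. PERK and the amino acid sensor GCN2 phosphorylate the translation factor eIF2, which favours translation of ATF4, and ATF4 acts on genes for amino acid synthesis and uptake, for several tRNA synthetases and for the stress factor DDIT3 (CHOP). Gene-level values do not separate the spliced from the unspliced XBP1 transcript, nor do they show ATF4 protein.

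Both arms are known for short DNA elements in the promoters of their targets, and the sequences of some members are shown as a description. Whether genes with an element were called more or less often than the others was not tested. RefSeq promoter windows of GRCh38.p14, from 250 bases before to 50 bases after 1 start site, were found for 46 of the 51 genes. The ER stress response element ERSE was searched as CCAAT and CCACG with 9 bases of any kind between, ERSE-II as ATTGG and CCACG with 1 base between, the unfolded protein response element UPRE as TGACGTGG and the C/EBP-ATF response element CARE as TGATGNAA, each on both strands. ERSE stood in 6 of the 23 chaperone-arm windows and in 0.0769% of the 35116 windows of all genes, and ERSE-II in 3 of 23 and in 0.0541% of all. CARE stood in 3 of 13 windows of the ATF4 arm, in 6 of 10 windows of the synthetases, in the window of HERPUD1 in the chaperone arm and in 3.62% of all. UPRE stood in 1 member window, that of HYOU1, where it overlapped an ERSE-II, and in 0.729% of all. The following stretches run 5′ to 3′ on the strand of the gene, with the element in capitals. They are ERSE of XBP1 (chr22:28800591-28800633, minus strand), HSPA5 (chr9:125241379-125241421, minus strand), CALR (chr19:12938372-12938414, plus strand) and CANX (chr5:179698766-179698808, plus strand), and ERSE-II of HERPUD1 (chr16:56932013-56932047, plus strand) and SDF2L1 (chr22:21642102-21642136, plus strand).
XBP1: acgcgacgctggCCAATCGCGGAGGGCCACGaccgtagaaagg
HSPA5: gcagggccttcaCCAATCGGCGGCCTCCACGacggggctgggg
CALR: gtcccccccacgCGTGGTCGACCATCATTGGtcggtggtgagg
CANX: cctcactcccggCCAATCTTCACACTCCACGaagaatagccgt
HERPUD1: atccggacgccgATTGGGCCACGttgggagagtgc
SDF2L1: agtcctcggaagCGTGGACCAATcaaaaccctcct
The CARE stretches are those of ASNS (chr7:97872457-97872488, minus strand), CHAC1 (chr15:40953250-40953281, plus strand) and AARS (chr16:70289674-70289705, minus strand).
ASNS: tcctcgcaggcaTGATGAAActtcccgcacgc
CHAC1: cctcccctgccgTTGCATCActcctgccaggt
AARS: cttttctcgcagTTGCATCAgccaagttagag
The windows of EDEM1 (chr3:5187457-5187756, plus strand) and DDIT4 (chr10:72273674-72273973, plus strand), which fell with Combo as XBP1 did, held none of the 4 elements.
EDEM1: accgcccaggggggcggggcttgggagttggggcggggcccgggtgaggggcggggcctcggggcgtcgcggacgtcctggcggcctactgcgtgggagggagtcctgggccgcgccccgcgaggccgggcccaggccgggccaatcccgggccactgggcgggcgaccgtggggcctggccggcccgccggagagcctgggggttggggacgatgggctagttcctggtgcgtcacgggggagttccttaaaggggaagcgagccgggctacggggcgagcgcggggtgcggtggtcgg
DDIT4: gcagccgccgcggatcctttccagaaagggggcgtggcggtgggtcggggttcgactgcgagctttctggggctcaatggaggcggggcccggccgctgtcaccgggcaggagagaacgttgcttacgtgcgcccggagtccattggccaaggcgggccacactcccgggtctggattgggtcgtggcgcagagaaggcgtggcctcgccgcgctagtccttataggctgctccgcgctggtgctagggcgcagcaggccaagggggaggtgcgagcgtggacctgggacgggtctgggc
A match describes letters in 1 window for each gene and is no evidence of binding. A window without a match does not show that the gene lacks the element, which may lie outside the window or differ in letters.

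Read totals estimated from the table were 20.6 to 27.3 M per library. Myeloid markers were present in every library (CD33 at 717 to 974 and SPI1 at 2145 to 3299 normalised counts), and MS4A1, a marker of B cells, was at 0 in 6 libraries. The markers fixed for stromal and epithelial cells summed to 304 to 638 normalised counts. Mitochondrial messenger RNA was 1.80% to 2.83% of the iDOT1L libraries, 1.85% to 3.20% of iEZH2, 2.66% to 3.54% of Combo and 1.66% to 2.5% of DMSO. Messenger RNA of ribosomal proteins was 11.4% to 13.1% of the iDOT1L libraries, 10.9% to 13.5% of iEZH2, 11.9% to 16.2% of Combo and 10.53% to 11.52% of DMSO. The 12 myeloid markers summed to 52140 to 57160 normalised counts in iDOT1L, 34830 to 42650 in iEZH2, 50510 to 57870 in Combo and 42030 to 47540 in DMSO, so that all iDOT1L and Combo libraries lay above DMSO. The part of these 3 measures in the results was not tested. All 51 genes passed the filter on low values. Genes were called with limma at a Benjamini-Hochberg adjusted p under 0.05 over the 22331 genes tested. The 3 treated groups were each set against the same 4 DMSO libraries, so their differences share these controls. In RNA from whole cultures, fewer cells of a kind and less RNA per cell cannot be told apart.

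Of the 51 genes, 1 rose and 5 fell with iDOT1L, where 6.25% of all genes tested were called, 3.08% higher and 3.17% lower. With iEZH2 none rose and 4 fell, against 3.35% of all genes called, 1.30% higher and 2.05% lower. With Combo 1 rose and 12 fell, against 16% of all genes called, 7.22% higher and 8.80% lower. Libraries of a group all lay above those of DMSO for 1 member and all below for 10 with iDOT1L (6.05% and 6.42% of all genes), for none and 5 with iEZH2 (3.67% and 4.95%), and for 2 and 13 with Combo (9.62% and 10.3%), so that groups were apart for 12.5%, 8.62% and 19.9% of all genes. Called in at least 1 of the 3 comparisons were 13 of the 51 genes. XBP1, the transcription factor of the chaperone arm, and TRIB3, a pseudokinase target of ATF4 and DDIT3, fell in all 3. The heat map of all members by library shows XBP1, EDEM1 and DDIT4 as the rows of the deepest blue among the genes called.

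**Figure D1:**
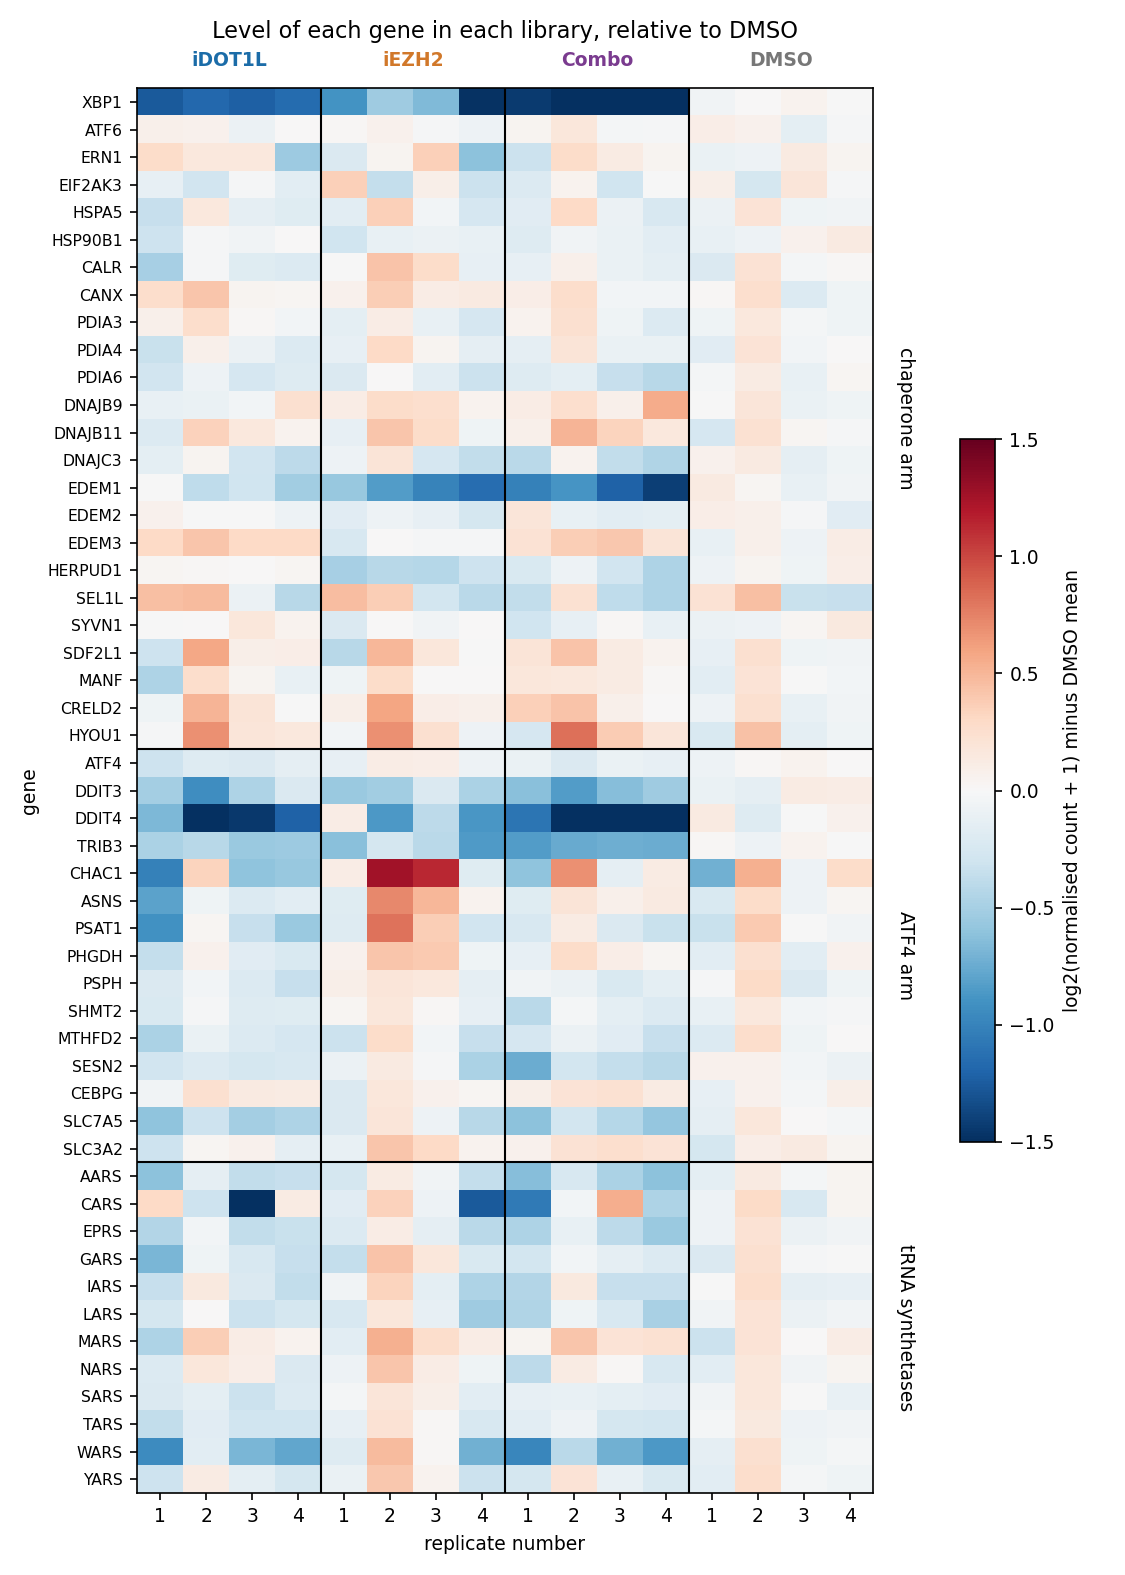
Heat map of the 51 genes (rows, grouped in the chaperone arm, the ATF4 arm and the tRNA synthetases) in the 16 libraries (columns, replicates 1 to 4 of iDOT1L, iEZH2, Combo and DMSO), with colour giving log2(normalised count + 1) minus the mean of the 4 DMSO libraries, capped at 1.5. XBP1, DDIT4 and TRIB3 are blue in every Combo library, and the libraries numbered 2 are the reddest of each group over many rows.

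In the chaperone arm the fall was narrow: XBP1, a pair of degradation genes and 1 disulfide isomerase fell, while the sensors and the chaperones themselves were not called. XBP1 (ENSG00000100219, chr22:28794555-28800597) had 3714, 3926, 3801 and 4012 normalised counts in the iDOT1L libraries, 4775, 6164, 5602 and 3187 in iEZH2, 3276, 2974, 2688 and 2866 in Combo, and 8568, 8945, 9195 and 8887 in DMSO. Every treated library lay below every DMSO library. XBP1 fell with iDOT1L (log2 difference −1.20, SE 0.14, adjusted p = 2.03e-05), with iEZH2 (−0.89, SE 0.14, adjusted p = 0.00118) and with Combo (−1.60, SE 0.14, adjusted p = 4.14e-07). These calls held with any 1 library of the compared groups left out, with adjusted p of at most 0.00609. The 3 sensor genes were not called in any comparison with DMSO.

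ATF6 (ENSG00000118217, chr1:161766294-161964070), a transcription factor that is held in the ER membrane until stress releases it, had 1847, 1837, 1650 and 1760 normalised counts with iDOT1L, 1770, 1826, 1735 and 1659 with iEZH2, 1799, 1972, 1715 and 1725 with Combo, and 1870, 1834, 1584 and 1735 in DMSO. ERN1, which encodes the kinase and nuclease IRE1, had 363, 333, 334 and 204 with iDOT1L, 258, 307, 384 and 195 with iEZH2, 240, 362, 326 and 307 with Combo, and 280, 283, 328 and 309 in DMSO. EIF2AK3, which encodes the eIF2 kinase PERK, had 354, 316, 380 and 345 with iDOT1L, 496, 300, 411 and 307 with iEZH2, 334, 399, 314 and 386 with Combo, and 410, 322, 439 and 382 in DMSO. The groups overlapped for all 3 sensors in every comparison with DMSO, and their log2 differences lay between −0.15 and 0.04.

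Among the genes of ER-associated degradation, EDEM1 fell where EZH2 was inhibited, EDEM3 rose where DOT1L was inhibited, and HERPUD1 fell with iEZH2. EDEM1 (ENSG00000134109, chr3:5187646-5219957) encodes a mannosidase-like protein that marks misfolded glycoproteins. It had 4643, 3576, 3782 and 3235 normalised counts with iDOT1L, 3151, 2613, 2330 and 2114 with iEZH2, 2306, 2532, 2011 and 1751 with Combo, and 5132, 4749, 4314 and 4486 in DMSO. All iEZH2 and Combo libraries lay below all DMSO libraries, and iDOT1L overlapped DMSO in 1 library. EDEM1 fell with iEZH2 (log2 difference −0.88, SE 0.13, adjusted p = 0.000908) and with Combo (−1.13, SE 0.13, adjusted p = 7.64e-06), and its log2 difference with iDOT1L was −0.30 (SE 0.13, adjusted p = 0.224). With the replicate number as a block, which pairs libraries of the same number, the iDOT1L difference was called (adjusted p = 0.0152).

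EDEM3 (ENSG00000116406, chr1:184690231-184754913), another member of the EDEM family, had 3789, 4117, 3786 and 3802 normalised counts with iDOT1L, 2612, 3095, 3040 and 3058 with iEZH2, 3587, 3989, 4099 and 3540 with Combo, and 2857, 3242, 2931 and 3341 in DMSO. The iDOT1L and Combo libraries lay above all iEZH2 and DMSO libraries. EDEM3 rose with iDOT1L (log2 difference 0.33, SE 0.08, adjusted p = 0.0187) and with Combo (0.30, SE 0.08, adjusted p = 0.0160), and its log2 difference with iEZH2 was −0.07 (adjusted p = 0.757). The rise with iDOT1L was not called without iDOT1L 2, DMSO 1 or DMSO 3 (adjusted p of at most 0.0674), and that with Combo without Combo 3, DMSO 1 or DMSO 3 (at most 0.0644). EDEM2, the mannosidase of the family that starts the trimming, had groups that overlapped DMSO throughout and log2 differences of −0.01, −0.16 and −0.06 with iDOT1L, iEZH2 and Combo.

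HERPUD1 (ENSG00000051108, chr16:56932048-56944863) encodes an ER membrane protein of the degradation complex. It had 1475, 1456, 1450 and 1469 normalised counts with iDOT1L, 1018, 1076, 1073 and 1162 with iEZH2, 1227, 1366, 1185 and 1041 with Combo, and 1363, 1486, 1376 and 1548 in DMSO. The iEZH2 libraries all lay below DMSO, and 1 Combo library lay within the DMSO range. HERPUD1 fell with iEZH2 (log2 difference −0.41, SE 0.09, adjusted p = 0.00887) and with Combo (−0.27, SE 0.09, adjusted p = 0.0392), and its log2 difference with iDOT1L was 0.02. The Combo call was lost without Combo 1, Combo 3, Combo 4, DMSO 2, DMSO 3 or DMSO 4 (adjusted p of at most 0.153), and with upper-quartile scaling (0.122), with quantile normalisation (0.189), without the trend and robust options of limma (0.0612) and with only the Combo and DMSO libraries in the fit (0.0835). SEL1L and SYVN1, the scaffold and the ubiquitin ligase of the same complex, were not called in any comparison with DMSO.

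**Figure D2:**
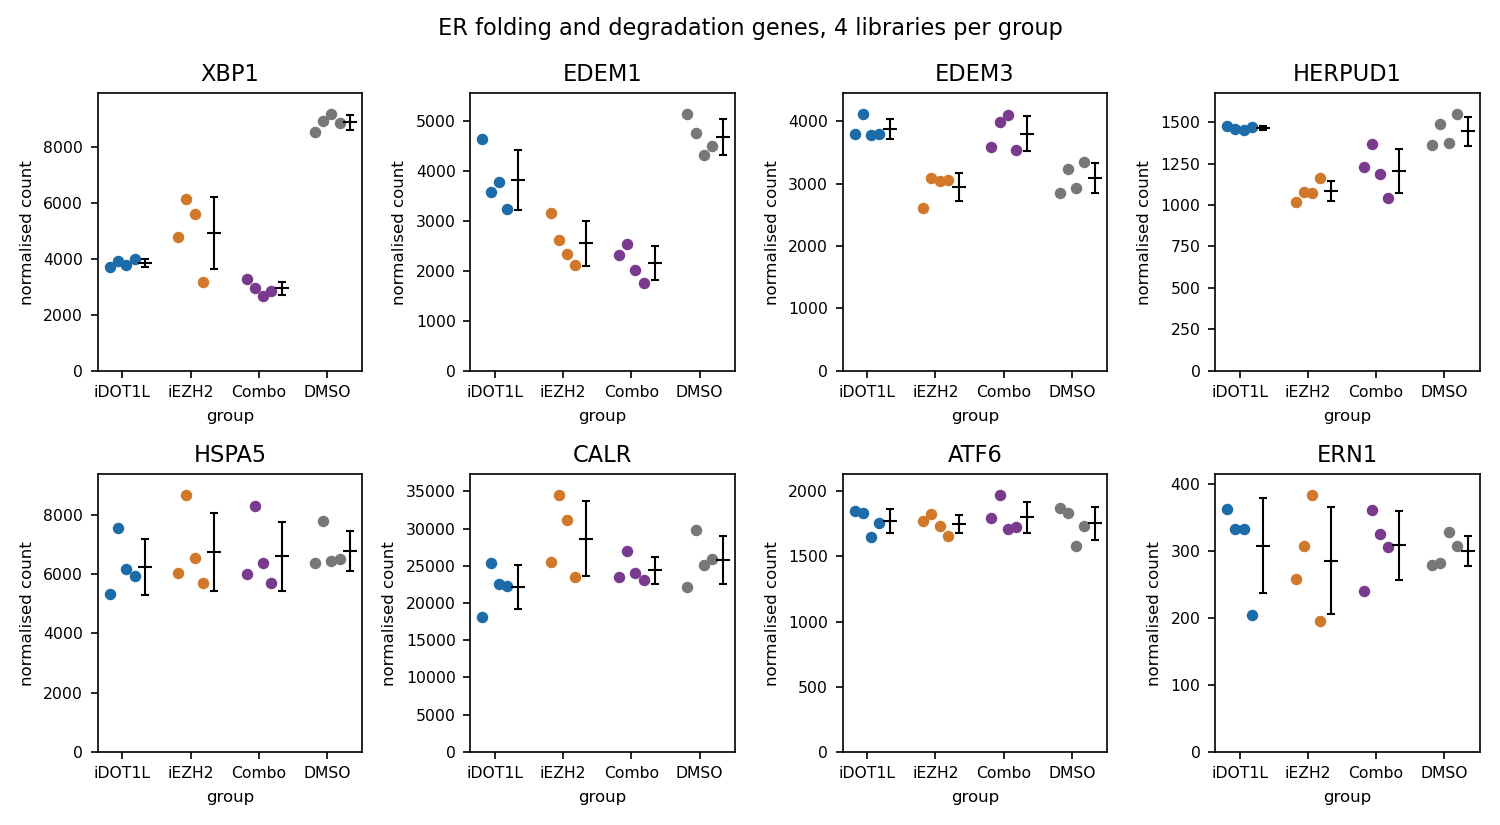
Normalised counts of 8 chaperone-arm genes (y axis, from 0) in the 4 libraries of iDOT1L, iEZH2, Combo and DMSO, with mean and SD to the right of the points. The treated XBP1 libraries lie between 2688 and 6164 and the DMSO libraries between 8568 and 9195, and the groups overlap for HSPA5, CALR, ATF6 and ERN1.

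The folding enzymes gave 1 call. PDIA6 (ENSG00000143870), a disulfide isomerase, had 5906, 6120, 5317 and 5066 normalised counts with Combo and 6631, 7376, 6251 and 6902 in DMSO, without overlap. It fell by 0.28 (SE 0.09, adjusted p = 0.0332), and the call was lost without Combo 3, Combo 4, DMSO 1, DMSO 2 or DMSO 4 (at most 0.119), with upper-quartile scaling (0.0744), with quantile normalisation (0.215) and without the trend and robust options (0.0704). Of the 31-base words of its transcripts, 23.5% also occur in ATP6V1C2, listed at 80.2 to 227 normalised counts, so the level of PDIA6 is uncertain. HSPA5, the chief chaperone of the ER (BiP), averaged 6243 ± 939, 6735 ± 1329 and 6593 ± 1161 normalised counts with iDOT1L, iEZH2 and Combo, and 6781 ± 679 in DMSO (SD, n = 4 each), where library DMSO 2 stood above the others. CALR, a lectin chaperone, averaged 22098 ± 2959, 28648 ± 5062 and 24370 ± 1754 in these groups and 25779 ± 3185 in DMSO (SD, n = 4 each). The groups overlapped for both, and their log2 differences from DMSO were between −0.22 and 0.14. HSP90B1, CANX, PDIA3, PDIA4, DNAJB9, DNAJB11, DNAJC3, SDF2L1, MANF, CRELD2 and HYOU1 were not called either. The levels of PDIA3 and DNAJB11 are uncertain, since 36.8% and 22.4% of their words occur in other genes. PDIA3P1, which holds 20.5% of the words of PDIA3, was listed at 17.8 to 39.4 normalised counts. Over all chaperone-arm genes that were not called the log2 differences ran from −0.30 (EDEM1) to 0.26 (HYOU1) with iDOT1L, from −0.18 (PDIA6) to 0.21 (CRELD2) with iEZH2 and from −0.29 (DNAJC3) to 0.28 (HYOU1) with Combo. Thus 1 of 24 rose and 1 fell with iDOT1L, 3 fell with iEZH2, and 1 rose and 4 fell with Combo, where 6.25%, 3.35% and 16% of all genes were called. The 2 of 24 called with iDOT1L (8.33%) and the 5 of 24 with Combo (20.8%) lay near those shares. The 3 of 24 with iEZH2 (12.5%), all lower, lay above the share of all genes called (3.35%, with 2.05% lower). The medians of 0.00, −0.04 and −0.04 lay close to those of all genes tested (0.01, 0.02 and 0.03). The 4 that fell with Combo became 2 without Combo 3, Combo 4, DMSO 2 or DMSO 4. Of the 9 genes with ERSE or ERSE-II in their window, XBP1 fell with iDOT1L, XBP1 and HERPUD1 with iEZH2 and the same pair with Combo, and the other 7 were not called. Among the genes of the arm with neither element found, EDEM1, EDEM3 and PDIA6 were called and the rest were not.

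In the ATF4 arm the stress regulators DDIT3, DDIT4 and TRIB3 and the leucine transporter gene SLC7A5 fell with iDOT1L and with Combo, SESN2 fell with Combo, and TRIB3 alone fell with iEZH2. Enzymes of asparagine, serine and folate metabolism in the same arm were not called in the fit without a block. ATF4 itself (ENSG00000128272, chr22:39519695-39522685) had 7892, 8518, 8379 and 8879 normalised counts with iDOT1L, 8968, 10535, 10493 and 9254 with iEZH2, 9131, 8424, 9129 and 8968 with Combo, and 9253, 9873, 10114 and 9804 in DMSO. The iDOT1L and Combo libraries lay below all DMSO libraries by a narrow margin. The log2 differences of −0.21 with iDOT1L (SE 0.07, adjusted p = 0.0908), 0.00 with iEZH2 and −0.13 with Combo (adjusted p = 0.244) were not called, and the first was called with the replicate block (adjusted p = 0.0194). Of the 31-base words of ATF4, 29.7% also occur in other genes, 20.2% in the pseudogene ATF4P3, so the level of ATF4 is uncertain. ATF4P3 itself was listed at 0 to 5.88 normalised counts.

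DDIT4 (ENSG00000168209, chr10:72273920-72276036), an inhibitor of mTORC1 signalling, had 19974, 8472, 11690 and 13747 normalised counts with iDOT1L, 34369, 17475, 24351 and 17344 with iEZH2, 14956, 5347, 8032 and 8560 with Combo, and 34948, 27872, 31712 and 33362 in DMSO. Every iDOT1L and Combo library lay below DMSO, and iEZH2 overlapped it. DDIT4 fell with iDOT1L (log2 difference −1.31, SE 0.31, adjusted p = 0.0200) and with Combo (−1.89, SE 0.31, adjusted p = 0.000716), and its log2 difference with iEZH2 was −0.51 (adjusted p = 0.477). The iDOT1L call was lost without iDOT1L 2, iDOT1L 3, DMSO 1 or DMSO 4 (adjusted p of at most 0.0613). The antisense gene DDIT4-AS1 shares 38.3% of its words, and the sources used here do not state whether counting used strand, so reads of the pair cannot be told apart.

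DDIT3 (ENSG00000175197, chr12:57516588-57521737), the transcription factor CHOP, had 244, 182, 252 and 298 normalised counts with iDOT1L, 235, 242, 298 and 250 with iEZH2, 225, 194, 222 and 239 with Combo, and 324, 315, 379 and 374 in DMSO. All treated libraries lay below DMSO. DDIT3 fell with iDOT1L (log2 difference −0.53, SE 0.14, adjusted p = 0.0262) and with Combo (−0.66, SE 0.14, adjusted p = 0.00251), and the log2 difference of −0.44 with iEZH2 was not called (adjusted p = 0.0939) but was called with the replicate block (0.0143). The iDOT1L call was lost without iDOT1L 2, iDOT1L 3, DMSO 3 or DMSO 4 (adjusted p of at most 0.0945), with upper-quartile scaling (0.0504) and with only the iDOT1L and DMSO libraries in the fit (0.0582). The gene overlaps the member MARS on the opposite strand, which holds 21.5% of its words at 3678 to 7342 normalised counts, so its level is uncertain.

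TRIB3 (ENSG00000101255, chr20:362835-397559) had 569, 591, 534 and 540 normalised counts with iDOT1L, 512, 657, 596 and 438 with iEZH2, 442, 468, 474 and 472 with Combo, and 800, 750, 817 and 788 in DMSO. It lay below DMSO in every treated library. It fell with iDOT1L (log2 difference −0.50, SE 0.11, adjusted p = 0.00625), with iEZH2 (−0.53, SE 0.11, adjusted p = 0.00705) and with Combo (−0.76, SE 0.11, adjusted p = 4.69e-05), and each call held with any 1 library left out. SLC7A5 (ENSG00000103257), the light chain of the large neutral amino acid transporter, had 5629, 6863, 6015 and 6179 normalised counts with iDOT1L, 7342, 9681, 8093 and 6417 with iEZH2, 5579, 7060, 6354 and 5710 with Combo, and 7774, 9569, 8568 and 8340 in DMSO. The iDOT1L and Combo libraries lay below DMSO and iEZH2 overlapped it. SLC7A5 fell with iDOT1L (log2 difference −0.47, SE 0.11, adjusted p = 0.0134) and with Combo (−0.47, SE 0.11, adjusted p = 0.00596), whereas SLC3A2, the gene of its heavy chain, had log2 differences of −0.09 and 0.19 in those comparisons and was not called. SESN2 (ENSG00000130766), a leucine sensor and inhibitor of mTORC1, had 308, 424, 403 and 387 normalised counts with Combo and 540, 538, 500 and 484 in DMSO. It fell with Combo (log2 difference −0.45, SE 0.12, adjusted p = 0.0172), a call lost without Combo 1 (0.0621), and its log2 differences with iDOT1L and iEZH2 were −0.25 and −0.11.

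The biosynthetic members of the arm were not called in any comparison with DMSO in the fit without a block. With the replicate block in limma, PSAT1 (adjusted p = 0.00932) and MTHFD2 (0.0275) were called lower with iDOT1L. ASNS, the asparagine synthetase, had 585, 977, 885 and 916 normalised counts with iDOT1L, 899, 1683, 1440 and 1062 with iEZH2, 901, 1170, 1075 and 1126 with Combo, and 873, 1236, 968 and 1042 in DMSO, with overlap throughout. Its level is uncertain, because another annotated gene holds 42.2% of its words. CHAC1, a glutathione-degrading enzyme, was low, at 21.6 to 109 normalised counts, and its iEZH2 libraries ran from 39.2 to 109 beside 26.6 to 65.1 in DMSO. PSAT1, PHGDH and PSPH of serine synthesis and SHMT2 and MTHFD2 of mitochondrial folate metabolism had log2 differences between −0.44 (PSAT1 with iDOT1L) and 0.20 (PHGDH with iEZH2). MTHFD2 shares 39.2% of its words with other genes, so its level is uncertain. SLC4A5, which holds 25.7% of them, was listed at 14.8 to 70.6 normalised counts. CEBPG, a partner factor of ATF4, had 0.11, 0.01 and 0.16 with iDOT1L, iEZH2 and Combo. In all, the genes of the arm that fell numbered 4 of 15 for iDOT1L, 1 for iEZH2 and 5 for Combo, where 3.17%, 2.05% and 8.80% of all genes fell. The 1 gene with iEZH2 was TRIB3. None rose, and the medians were −0.26, 0.01 and −0.17. The 4 that fell with iDOT1L became 2 without iDOT1L 2, iDOT1L 3 or DMSO 4, and the 5 that fell among all 51 genes became 3 without iDOT1L 3 or DMSO 4. None of the 5 genes that fell (DDIT3, DDIT4, TRIB3, SESN2 and SLC7A5) had a CARE in its window, which does not show that they lack one. The 3 genes of the arm with a CARE in the window (CHAC1, ASNS and SLC3A2) were not called.

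**Figure D3:**
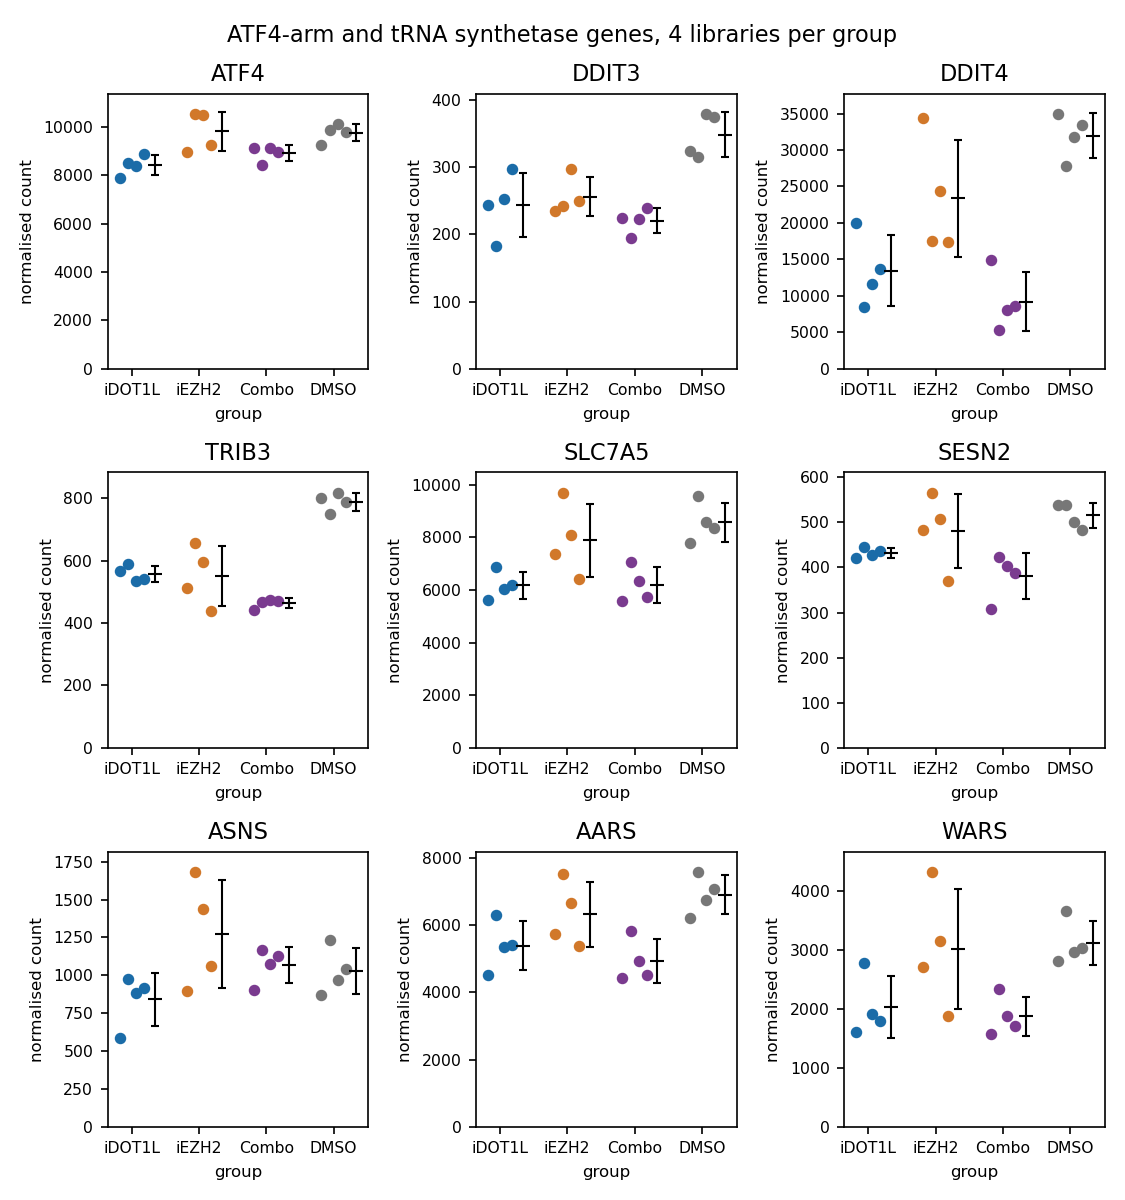
Normalised counts of 7 ATF4-arm genes and of the synthetase genes AARS and WARS (y axis, from 0) in the 4 libraries of iDOT1L, iEZH2, Combo and DMSO, with mean and SD to the right of the points. DDIT4 and TRIB3 lie lower in all Combo libraries than in DMSO, and the ASNS groups overlap.

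The cytosolic tRNA synthetases, which charge transfer RNAs with amino acids, gave no call with iDOT1L or iEZH2, where 6 and 0 of them had an unadjusted p under 0.05 in limma, and 3 of 12 fell with Combo, where 8.80% of all genes fell. AARS, the alanyl-tRNA synthetase (ENSG00000090861, chr16:70252295-70289543), had 4505, 6284, 5348 and 5415 normalised counts with iDOT1L, 5726, 7525, 6656 and 5382 with iEZH2, 4421, 5836, 4937 and 4508 with Combo, and 6209, 7578, 6751 and 7071 in DMSO. The Combo libraries lay below DMSO, while iDOT1L and iEZH2 overlapped it. AARS fell with Combo (log2 difference −0.49, SE 0.12, adjusted p = 0.00673), and its log2 difference with iDOT1L was −0.36 (SE 0.12, adjusted p = 0.0787). WARS, the tryptophanyl-tRNA synthetase (ENSG00000140105), had 1605, 2785, 1920 and 1802 normalised counts with iDOT1L, 2710, 4321, 3144 and 1874 with iEZH2, 1574, 2338, 1875 and 1707 with Combo, and 2816, 3650, 2963 and 3029 in DMSO. The iDOT1L and Combo libraries lay below DMSO, and the iEZH2 libraries spread across and beyond its range. WARS fell with Combo (log2 difference −0.74, SE 0.21, adjusted p = 0.0220), a call lost without Combo 1, Combo 4 or DMSO 2 (at most 0.0658), and its log2 difference with iDOT1L was −0.64 (SE 0.21, adjusted p = 0.0841).

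EPRS, the glutamyl-prolyl-tRNA synthetase (ENSG00000136628), had 9251, 11804, 9685 and 8609 normalised counts with Combo and 12071, 14742, 11927 and 12259 in DMSO, where library DMSO 2 stood above the others. It fell by 0.38 (SE 0.12, adjusted p = 0.0333), and the call was lost without Combo 1, Combo 3, Combo 4, DMSO 1, DMSO 2 or DMSO 4 (at most 0.116), with upper-quartile scaling (0.0516), with quantile normalisation (0.0553) and without the trend and robust options (0.0802). The 3 calls became 1 without Combo 1, Combo 4 or DMSO 2. With iDOT1L there were 2 calls without iDOT1L 2, where 1096 of all genes tested were called. Called or not, 11 of 12 had a negative log2 difference with iDOT1L, 7 of 12 with iEZH2 and 11 of 12 with Combo, where 48.7%, 47.9% and 47.2% of all genes tested were negative. No direction is read from those that were not called. The medians were −0.25, −0.06 and −0.22 with iDOT1L, iEZH2 and Combo. CARS was listed at 12.8 to 89.6 normalised counts, and whether reads of this gene stand under another ID was not tested. Of the 6 synthetases with a CARE in the window (AARS, CARS, IARS, MARS, NARS and TARS), AARS was called, with Combo.

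Since libraries of the same number varied together in iDOT1L, iEZH2 and DMSO, the comparisons among these 3 groups were also fitted with the replicate number as a block. Some libraries of different numbers correlated more than the least correlated pair of the same number, so pairing is not established for every number. With the block, 2 of the 51 genes rose and 17 fell with iDOT1L, against 12.2% of all genes tested (5.69% higher and 6.53% lower). The added genes were CANX (higher), CALR, PDIA6 and EDEM1 of the chaperone arm, ATF4, PSAT1 and MTHFD2 of the ATF4 arm and AARS, EPRS, GARS, SARS, TARS and WARS (all lower). Counted by arm, 4 of 24, 7 of 15 and 6 of 12 fell in the chaperone arm, the ATF4 arm and the synthetases. With iEZH2, 5 genes fell with the block, DDIT3 being added, against 9.76% of all genes (3.87% higher and 5.89% lower). The block thus moved the synthetases with iDOT1L to 6 calls, where the fit without it had none and 6 genes with an unadjusted p under 0.05.

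The plot of log2 fold changes by arm sets the arms side by side, as a description with no test. With iDOT1L the median was 0.00 in the chaperone arm, −0.26 in the ATF4 arm and −0.25 in the synthetases, with iEZH2 it was −0.04, 0.01 and −0.06, and with Combo −0.04, −0.17 and −0.22. Levels were also set side by side per library. The mean log2 level over the ATF4 arm minus that over the chaperone arm, each relative to DMSO, was −0.36, −0.33, −0.29 and −0.21 in the iDOT1L libraries, −0.01, 0.10, 0.18 and −0.02 in iEZH2, −0.22, −0.31, −0.15 and −0.11 in Combo, and −0.10, 0.01, 0.03 and 0.05 in DMSO. All iDOT1L and Combo libraries were below all DMSO libraries in this difference, and iEZH2 overlapped DMSO. The margin was narrow for Combo, with Combo 4 at −0.112 and DMSO 1 at −0.097. DDIT4, 1 of the 15 genes in the ATF4 mean, had a log2 difference of −1.89 with Combo. The means without DDIT4 were not computed, so no shift of the whole arm is read from them. For the synthetases minus the chaperone arm the values were −0.26, −0.12, −0.35 and −0.13 in iDOT1L, −0.02, 0.20, 0.07 and −0.13 in iEZH2, −0.27, −0.09, −0.02 and −0.15 in Combo, and −0.07, 0.08, −0.01 and 0.00 in DMSO, so that iDOT1L lay below DMSO and the other treatments overlapped it. No test is given for these means, as the genes were chosen with earlier results known.

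**Figure D4:**
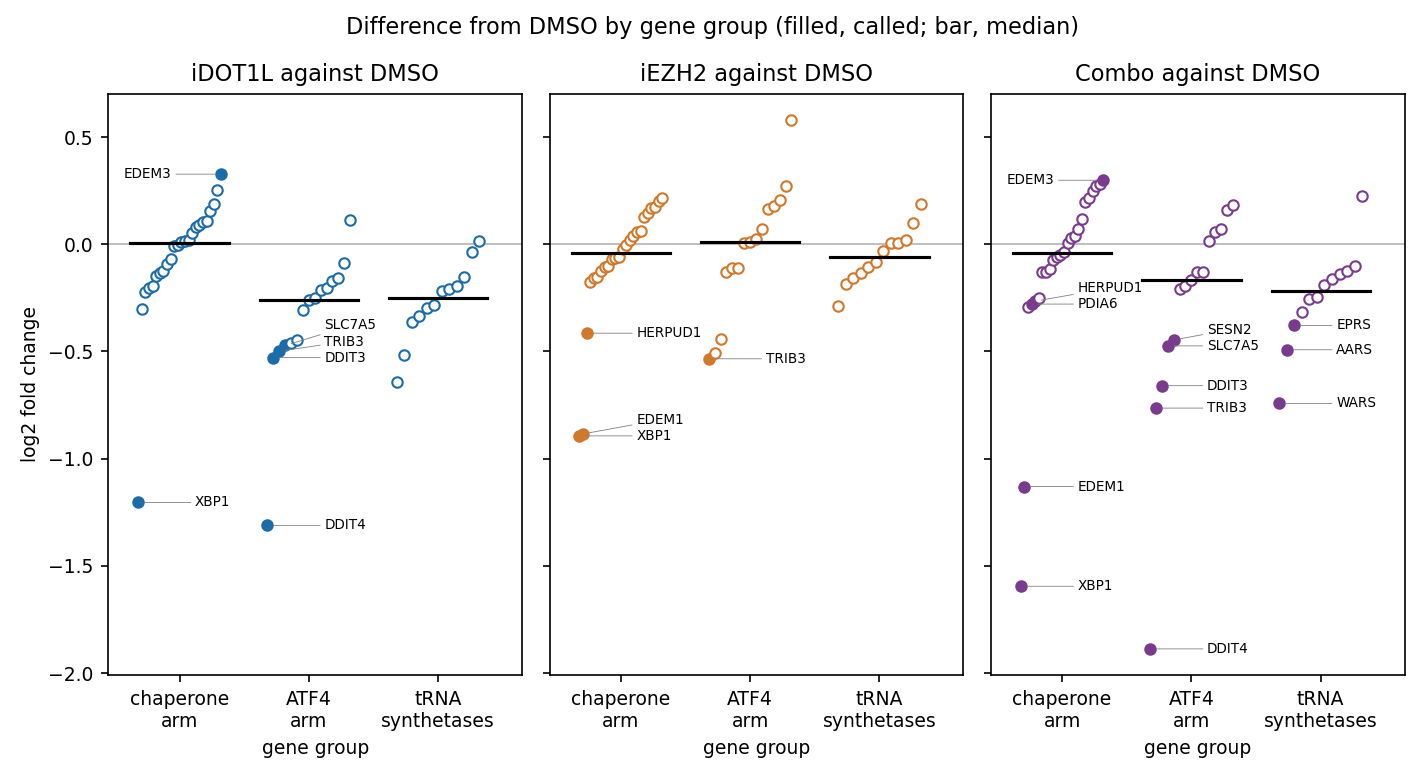
Log2 fold change of each gene (y axis) with iDOT1L, iEZH2 and Combo against DMSO (panels), by gene group (x axis), with filled points for called genes, open points for genes not called and bars for the median. The iDOT1L bar is at 0.00 in the chaperone arm and at −0.26 and −0.25 in the ATF4 arm and the synthetases, and the lowest points are XBP1, EDEM1 and DDIT4.

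Much of the spread within groups followed the library number. Replicate 2 had the highest mean level of its group in all 3 arms and all 4 groups, and 36, 43, 37 and 34 of the 51 genes were highest there in iDOT1L, iEZH2, Combo and DMSO. The share of all genes highest there was not counted, so this is not read as a trait of these genes. DDIT4 went the other way, being lowest in replicate 2 in iDOT1L, Combo and DMSO. The part of replicate 2 in the results was not tested beyond leaving these libraries out. Without the 4 libraries numbered 2, the iDOT1L comparison had 6 genes that fell, the iEZH2 comparison 4, and the Combo comparison 14 that fell and 1 that rose. Of all 22331 genes tested, 1109, 693 and 3486 were then called, where the fits with all libraries called 1396, 748 and 3579. All 13 Combo calls and all 4 iEZH2 calls were kept, EDEM3, DDIT3 and DDIT4 lost their iDOT1L calls (adjusted p of 0.0606, 0.0773 and 0.0577), and AARS, EPRS and WARS gained one (0.0309, 0.0345 and 0.00874).

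**Figure D5:**
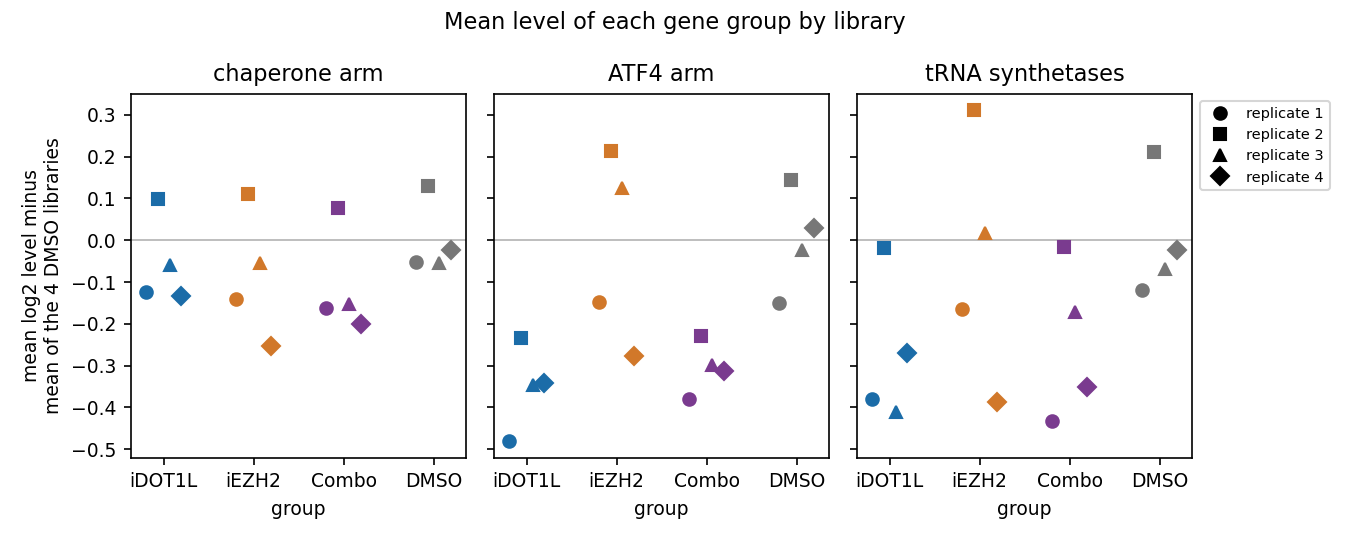
Mean log2 level of each gene group (panels) in each library of iDOT1L, iEZH2, Combo and DMSO (x axis), relative to the mean of the 4 DMSO libraries (y axis), with a symbol for each replicate number. Replicate 2 is the highest point of every group in every panel, and the 4 iDOT1L and 4 Combo libraries of the ATF4 arm lie between −0.48 and −0.23.

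Set against each single treatment, Combo had 1 of the 51 genes called against iDOT1L (1.96%) and 3 against iEZH2 (5.88%). Few of all genes were called in these comparisons too, so the small counts are not read as a trait of these genes. EDEM1 was the 1 gene called against iDOT1L, lower in Combo (log2 difference −0.83, SE 0.13, adjusted p = 0.00291), where 2.58% of all genes were called, 1.11% higher and 1.48% lower. Against iEZH2, EDEM3 was higher in Combo (log2 difference 0.37, SE 0.08, adjusted p = 0.0126), and XBP1 (−0.70, SE 0.14, adjusted p = 0.00486) and DDIT4 (−1.38, SE 0.31, adjusted p = 0.0208) were lower, where 3.81% of all genes were called, 2.08% higher and 1.72% lower. The EDEM3 call was lost without iEZH2 1 or Combo 3 (at most 0.0594) and the DDIT4 call without iEZH2 1, iEZH2 3, Combo 2, Combo 3 or Combo 4 (at most 0.0699), and none of the 3 was called with only the iEZH2 and Combo libraries in the fit (0.0606 for XBP1, 0.0664 for EDEM3 and 0.10 for DDIT4). Without the 4 libraries numbered 2, the XBP1 and DDIT4 calls were lost (0.0566 and 0.0594). Lower in Combo than in iEZH2 were 7 genes without iEZH2 4 and 1 gene without iEZH2 1, iEZH2 3, Combo 3 or Combo 4. Of all genes tested, 850 were called with all libraries and 1349 without iEZH2 4. Without iEZH2 1, iEZH2 3, Combo 3 and Combo 4 they numbered 550, 493, 532 and 591. XBP1 was lower in every Combo library than in every iDOT1L library, with a log2 difference of −0.39 that was not called (SE 0.14, adjusted p = 0.146). The count against iDOT1L became 2 without Combo 2, where 567 of all genes tested were called.

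Between the single treatments, EDEM1, EDEM3 and HERPUD1 were higher with iDOT1L than with iEZH2, by 0.58 (SE 0.13, adjusted p = 0.00932), 0.39 (SE 0.08, adjusted p = 0.00445) and 0.44 (SE 0.09, adjusted p = 0.00297), where 6.94% of all genes were called, 3.88% higher and 3.06% lower. All 4 iDOT1L libraries lay above all 4 iEZH2 libraries for 4 of the 51 genes, these 3 among them, and all below for 1. Over all genes these shares were 6.25% above and 5.04% below. No gene was called lower, and 18 of the 51 had an unadjusted p under 0.05 in either direction, 9 of them in the ATF4 arm and 4 among the synthetases. With the replicate block 4 were higher and 16 lower, against 14.3% of all genes (7.35% higher and 6.91% lower). The lower ones were CALR in the chaperone arm, 10 of the 15 ATF4-arm genes (ATF4, DDIT4, CHAC1, ASNS, PSAT1, PHGDH, PSPH, SHMT2, SLC7A5 and SLC3A2) and 5 synthetases (AARS, GARS, SARS, TARS and WARS), and the higher ones were PDIA3 and the 3 named above. Without a block, 4 genes were lower when iDOT1L 2 was left out, 2 without iEZH2 1 and 8 without iEZH2 4. Of all genes tested, 1521, 1579 and 1802 were called in these fits, where 1550 were called with all libraries. The difference between the single treatments in XBP1 was −0.31 (SE 0.14, adjusted p = 0.217).

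The test of departure from additivity, Combo minus iDOT1L minus iEZH2 plus DMSO, called none of the 51 genes and 0% of all genes with limma. At an unadjusted p under 0.05 it had 1 member, XBP1, and 848 of all genes tested. For XBP1 the Combo difference of −1.60 stood beside a sum of −2.10 for the single treatments, a departure of 0.50 (SE 0.19, adjusted p = 1). For EDEM1 the Combo difference was −1.13 and the sum −1.19, and for DDIT4 they were −1.89 and −1.82. A departure that misses the threshold does not show that the effects add.

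Other genes of these pathways, from lists written with earlier results of these data known, were read the same way. Of 50 other genes of ER folding, export and degradation, 2 fell with iDOT1L, none was called with iEZH2, and 1 rose and 8 fell with Combo (4%, none and 18% called, beside 6.25%, 3.35% and 16% of all genes). With the replicate block 1 rose and 9 fell with iDOT1L, and 1 rose and 6 fell with iEZH2 (20% and 14%, beside 12.2% and 9.76% of all genes). They included CREB3L2, an ER-tethered transcription factor (−0.54 with iDOT1L and −0.75 with Combo), ERP44, which retains client proteins in the early secretory pathway (−0.33 and −0.40), ERO1A, the oxidase that recharges disulfide isomerases (−0.64 with Combo), and CREB3 (−0.43 with Combo). Of 35 other ATF4 and integrated stress genes, 1 rose and 2 fell with iDOT1L, 2 rose with iEZH2, and 3 rose and 7 fell with Combo (8.57%, 5.71% and 28.6% called, beside the same shares of all genes). With the replicate block 4 rose and 11 fell with iDOT1L, and 4 rose and 4 fell with iEZH2. These were 42.9% and 22.9% called, beside 12.2% and 9.76% of all genes. SLC7A11, the cystine transporter, had 1231, 1594, 1401 and 992 normalised counts with iDOT1L, 952, 1509, 985 and 1437 with iEZH2, 2043, 3293, 2671 and 2123 with Combo, and 351, 689, 359 and 325 in DMSO. All treated libraries lay above DMSO, and SLC7A11 rose with iDOT1L (log2 difference 1.65, adjusted p = 0.000286), with iEZH2 (1.54, adjusted p = 0.00147) and with Combo (2.597, adjusted p = 1.23e-06). SESN3, of the sestrin family like SESN2, rose with iEZH2 (log2 difference 1.15, adjusted p = 0.00905) and with Combo (2.40, adjusted p = 1.34e-06). ATF5, a factor under translational control like ATF4, fell with iDOT1L (−0.89) and Combo (−0.94), CBS, of the transsulfuration route, fell with iDOT1L (−0.71), and VLDLR, a lipoprotein receptor, fell with Combo (−0.87). The CBS call was lost without iDOT1L 1, iDOT1L 4, DMSO 2, DMSO 3 or DMSO 4 (adjusted p of at most 0.0807).

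Other cytosolic synthetases and members of their complex were counted as well. Of these 11 none was called with iDOT1L or iEZH2, and FARSB (0.41) and EEF1E1 (0.39) rose with Combo. The shares called were 0%, 0% and 18.2% with iDOT1L, iEZH2 and Combo, beside 6.25%, 3.35% and 16% of all genes. The FARSB call was lost without Combo 3, Combo 4, DMSO 1 or DMSO 3 (at most 0.0727) and that of EEF1E1 without Combo 1, 3 or 4 or DMSO 1, 3 or 4 (at most 0.151). Their medians were −0.03, 0.04 and −0.03 with iDOT1L, iEZH2 and Combo. Among 17 mitochondrial synthetases, IARS2 fell with iDOT1L (−0.32) and with Combo (−0.40), and MARS2 (0.57) and NARS2 (0.34) rose with Combo. The shares called were 5.88%, 0% and 17.65% with iDOT1L, iEZH2 and Combo, beside the same shares of all genes. The IARS2 call with iDOT1L was lost without iDOT1L 3, iDOT1L 4 or DMSO 2 (at most 0.0713), and the NARS2 call without Combo 2, 3 or 4 or DMSO 1 or 3 (at most 0.107). With the replicate block 1 gene of each of these synthetase lists rose with iEZH2 (9.09% and 5.88% called, beside 9.76% of all genes). Cytosolic heat shock chaperones were also counted, of which 13 could be tested: HSPB1 and BAG3 fell with iDOT1L (−0.80 and −0.82) and with Combo (−0.55 and −0.73), and none was called with iEZH2. The share called was 15.4% with iDOT1L and 15.4% with Combo, beside 6.25% and 16% of all genes. With the replicate block 9 of the 13 fell with iDOT1L and none was called with iEZH2 (69.2% and 0%, beside 12.2% and 9.76% of all genes). Between the single treatments 8 of the 13 were lower with iDOT1L than with iEZH2, among them HSPB1, BAG3, HSPA8 and HSP90AA1. This was 61.5% of the list, where 3.06% of all genes were lower. With the replicate block 11 were lower (84.6%, where 6.91% of all genes were lower).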

How the data were processed

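RNA of 16 Molm14 libraries, 4 per group, was measured by sequencing. The deposited values are on a log2 scale, after library scaling and variance stabilisation by the authors of the kind DESeq2 makes. Kallisto, DESeq2 and hg38 are named in the submitters' processing notes, with no versions. The annotation used for counting is not given in the sources used here. Treatment took 7 days in the series' design text, but the labels' extraction protocol places RNA collection 3 days after a sort. The design text was followed, and the conflict was not resolved. The lowest value, 6.28106 in each library, was taken as a count of 0, and inverting the transformation gave normalised counts. Of the low values 63.6% to 66.9% per library then lay within 0.1 of a whole read, too few to recover counts, so no count test was run and read totals are estimates. No library was a copy of another.

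Symbols and positions came from GENCODE release 29 (20784 of 22445 IDs matched). Limma 3.58.1 in R 4.3.3 took log2(normalised count + 1) of 22331 genes with a count above 1 in at least 4 libraries, with 4 group means, no block, 12 residual degrees of freedom, and trend and robust moderation. Adjustment was Benjamini-Hochberg within each comparison over all genes tested. The step was tested on simulated data in which libraries varied independently. That test does not cover variation shared by libraries of the same number. Fold changes are on the log2(count + 1) scale. Same-number libraries had residual correlations above 0.1 over 12270 genes for every number, at 0.109 to 0.501 for iDOT1L with DMSO, 0.198 to 0.581 for iEZH2 with DMSO and 0.113 to 0.639 for the 2 single treatments, so these were also fitted with a block. Libraries of different numbers reached 0.326, 0.295 and 0.304 in the same pairs of groups, above the lowest same-number values. Levels are called uncertain where over 20% of a gene's 31-base words occur in other genes.

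Values per library were given for the regulators and the members with the lowest adjusted p in each arm, and up to 4 genes were named per other list. The members, the lists and the motifs were chosen with earlier results of these data known. The alternatives were other pseudocounts, the deposited log2 values, other filters and scalings, a fit without trend and robust options, a fit of only the groups compared, the block and leaving libraries out. Leaving out all libraries numbered 2 was chosen after seeing the data.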

Additional observations from a re-analysis of the deposited data

Results flagged for a closer look

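In 13 of the 204 groups of 4 libraries looked at, 1 for each gene and group, a single library stood far from the other 3, and chance gives about 1 in 20. The value given is the gap to the nearest other library as a share of the whole range, and levels are normalised counts.

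Library 2 was the high one in the following genes. In Combo 2, PDIA4 stood at 2645 where the others had 2112 to 2162 (0.907), DNAJC3 at 1840 where they had 1296 to 1368 (0.868), SEL1L at 2396 where they had 1485 to 1589 (0.886) and IARS at 7423 where they had 4955 to 5290 (0.864). In DMSO 2, HSPA5 stood at 7796 where the others had 6374 to 6507 (0.906), SDF2L1 at 563 where they had 437 to 457 (0.839), EPRS at 14742 where they had 11927 to 12259 (0.882) and LARS at 7375 where they had 6033 to 6177 (0.893). In iEZH2 2, CRELD2 stood at 462 where the others had 323 to 329 (0.956).

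EDEM3 stood apart in 2 groups, high in iDOT1L 2 at 4117 where the others had 3786 to 3802 (0.954) and low in iEZH2 1 at 2612 where they had 3040 to 3095 (0.886). HSP90B1 was low in iEZH2 1, at 14829 where the others had 16793 to 17158 (0.843), and EDEM2 was high in Combo 1, at 473 where they had 372 to 386 (0.857).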

How the results depend on the processing

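No direction turned under any alternative among the 84 gene results, which are those called with or without the block. The signs of other genes and of the arm medians were not compared. No median of an arm moved by more than the spread between replicates. The pseudocounts of 0.5 and 5, the deposited log2 values and no filter on low values left all 84 gene results on their side of the threshold. Counts of members called that moved by over 1.5 times were 2 for Combo against iDOT1L and 0 for Combo against iEZH2 with only the groups compared in the fit, 7 for iDOT1L against iEZH2 with quantile normalisation, and 1 for Combo against iEZH2 without the 4 libraries numbered 2; the cause was not tested. In those fits 465, 511, 1607 and 603 of all genes tested were called. Leaving out 1 library at a time gave 4 to 6 members called for iDOT1L against DMSO, 4 for iEZH2 against DMSO, 9 to 15 for Combo against DMSO, 1 to 2 for Combo against iDOT1L, 1 to 8 for Combo against iEZH2 and 3 to 11 for iDOT1L against iEZH2. In the same order, the calls over all genes ran from 915 to 1279, 409 to 1046, 2642 to 3583, 199 to 567, 493 to 1349 and 964 to 1802. The replicate block gave 19 members called for iDOT1L against DMSO, 23 for Combo against DMSO, 7 for Combo against iDOT1L, 10 for Combo against iEZH2 and 20 for iDOT1L against iEZH2. Same-number correlations with Combo ran from 0.0362 to 0.394 for iDOT1L, from 0.0528 to 0.482 for iEZH2 and from 0.0515 to 0.441 for DMSO, so not every number was above the 0.1 asked for and the pairing of Combo libraries is not established. Blocked Combo counts are given here alone, where 24.6%, 10.0% and 9.57% of all genes were called. The block ended no call among the 84 gene results. Upper-quartile scaling moved the median of all genes by up to 0.067 on the log2 scale, and 10 of the 13 Combo calls were kept. Depth is an estimate, so no counting error is given.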
